A study of Mus musculus with 4 samples.

Results

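The genes described here encode 38 enzymes that break down amino acids in the liver, outside the urea cycle, the methionine cycle and tryptophan breakdown. They were taken by gene symbol from a table of 21827 gene entries, and all 38 were found. The table compares livers of male and female CD-1 mice, an outbred stock, at 8 weeks of age and without treatment. Each sex is represented by 12 livers, whose RNA was mixed 6 by 6 into 2 pools before poly-A-enriched, strand-specific sequencing. The deposited values give 1 level per gene for male liver and 1 for female liver, so the spread between pools is not shown and no error over pools can be given beside a level. Mixing also hides differences between single mice, and the sources used here do not give the stage of the females' cycle. Levels are in RPKM, reads scaled by transcript length and by library size, computed here from the authors' log2 values. Log2 ratios are the normalized values that the authors give, with male over female liver. A gene was called different at an adjusted p under 0.05 in the authors' deposited table, and an uncalled gene is not shown to be equal in both sexes.

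Amino acids that are not needed for protein are stripped of nitrogen, largely by aminotransferases that pass the amino group to 2-oxoglutarate, and the carbon skeletons are burned or turned into glucose, ketone bodies or fat. The liver carries most of these pathways. Tyrosine is degraded to fumarate and acetoacetate, histidine to glutamate and a folate-bound carbon unit, and serine and glycine through dehydration, cleavage and folate chemistry. Branched-chain amino acids are the exception, because their first aminotransferase is mainly active outside the hepatocyte, whereas the later oxidation steps are strong in liver. The hormones glucagon, insulin and glucocorticoid are known to set the levels of several of these enzymes.

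All 38 genes were expressed in both sexes. Levels ran between 6.62 RPKM for Sdsl and 899 RPKM for Hpd in male liver, and between 4.31 RPKM for Sdsl and 1339 RPKM for Hpd in female liver. The median level was 100.9 RPKM in male liver and 108.5 RPKM in female liver, against 5.34 and 5.29 RPKM over the 13763 genes for which the table gives a ratio between the sexes, called the compared genes below. Summed over the 38 genes, levels came to 5636 RPKM in male and 6505 RPKM in female liver. Hpd alone made up 15.95% of that sum in male and 20.6% in female liver, the largest share of the 38 genes in both sexes. The lowest-expressed genes were Sdsl, Bcat2, Mccc1 and Mccc2 in both sexes.

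**Figure D1:**
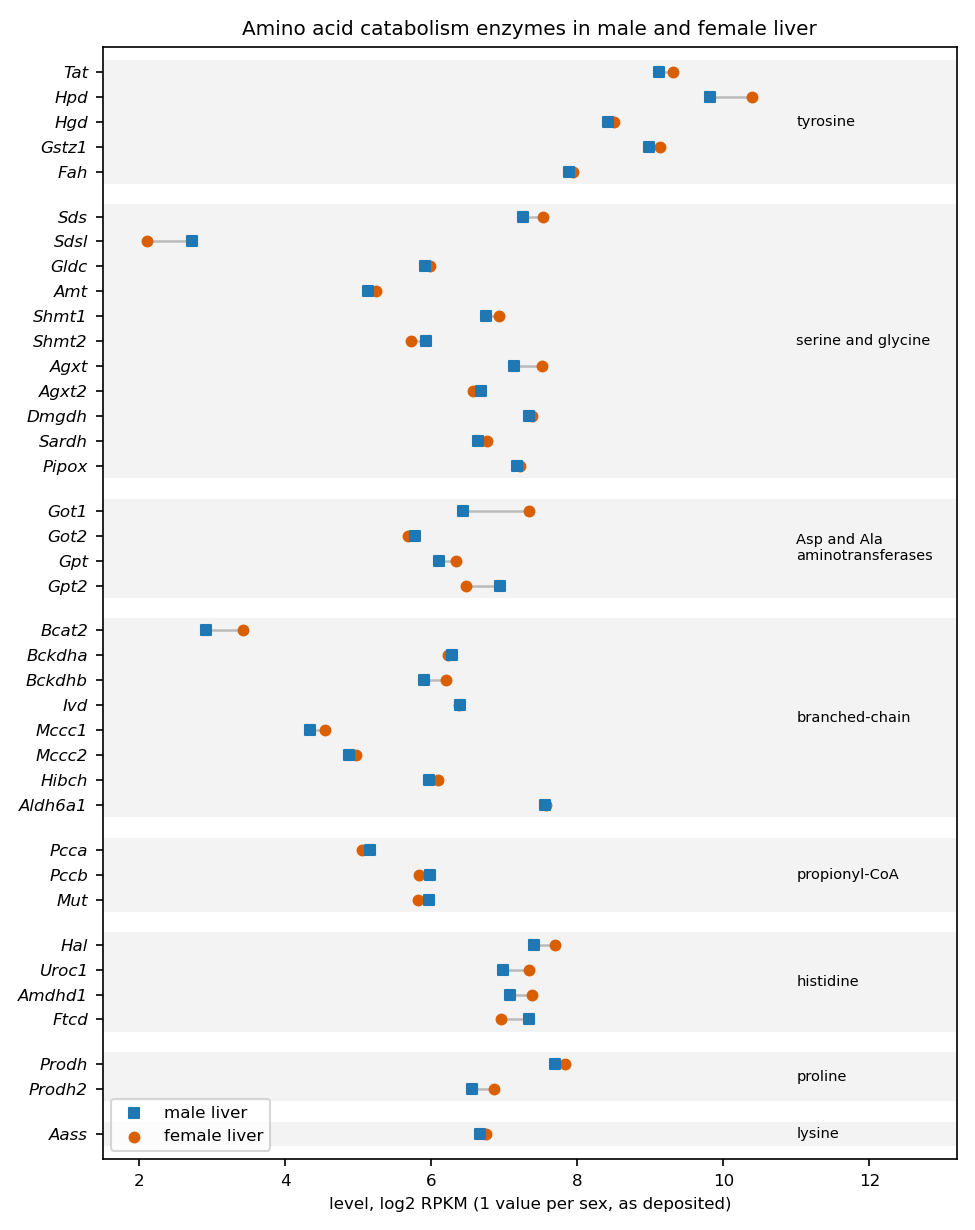
Level of each enzyme gene in male liver (squares) and female liver (circles), in log2 RPKM on the horizontal axis, grouped by pathway; a grey line joins the sexes, and there is 1 deposited value per sex. The widest gaps belong to Got1, Sdsl, Hpd and Bcat2, and most other squares and circles touch or lie close together.

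Sequencing depth was worked out from the lowest values of the table, taking the value at the floor as 1 read added to every gene, and came to 11.2 M reads for male and 14.7 M for female liver. At this depth Hpd corresponds to 14184 reads in male and 27668 in female liver, while Sdsl corresponds to 90 and 77. Counting intervals given below are exact 95% (Clopper-Pearson) intervals of the ratio of these implied reads. They are centred on the plain difference of the levels, from which the authors' normalized ratios of the 38 genes are offset by -0.11 to 0.04, and they cover counting error only, without differences between mice and pools. All 7 hepatocyte genes checked were abundant. Among them 3 (Apoa1, Serpina1c and Apob) were called higher and 1 (Alb) lower in males by the authors' deposited table. Alb stood at 29025 RPKM in male and 46923 RPKM in female liver. Markers of other liver cells were also present, and where called they were mostly lower in male liver. By the authors' deposited table, lower levels in male liver were called for 3 of 7 macrophage markers, 4 of 6 stellate cell markers and 1 of 6 endothelial markers, and higher levels for none. Their summed levels were 145 RPKM in male and 181.5 RPKM in female liver for macrophages, 93.4 and 125 RPKM for stellate cells, and 100.1 and 112 RPKM for endothelium. Of 5 cholangiocyte markers 1 was higher and 1 lower in male liver, and of 5 lymphocyte markers 2 were lower. In whole tissue, fewer cells of a type and less RNA per cell cannot be told apart. Cpa1 and Pnlip, digestive enzyme genes of the exocrine pancreas, were at 2.98 and 4.97 RPKM in male liver and at 0.129 and 0.320 RPKM in female liver. Both were called higher in male liver. Of the same list, Cela1 stood at 38.94 RPKM in male and 30.55 RPKM in female liver and was not called. Prss1 lay at the floor in both sexes. All 3 kidney tubule markers checked lay at the floor in both sexes. The part of these other cells in the differences below was not tested.

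Of the 38 enzyme genes, 7 were called different in the authors' deposited table, which is 18.4% of them. Over all compared genes 17.4% were called, and over the liver-expressed ones 17.2%, so the share is close to the background. By direction, 1 gene was higher in male liver (2.63%, against 7.21% of all compared genes and 8.00% of the liver-expressed ones). Lower levels in male liver were called for 6 (15.8%, against 10.2% and 9.20%). The single male-higher gene was Sdsl, and the 6 lower in male liver were Got1, Hpd, Bcat2, Uroc1, Prodh2 and Agxt. The authors place only Got1 and Hpd in their female-biased class, at an adjusted p under 0.01, and no gene of the set in their male-biased class. At that threshold 5.26% of the set was lower in male liver, against 6.05% of all compared and 5.42% of liver-expressed genes, and none was higher, against 4.16% and 4.59%. Without regard to direction, 10.2% of all compared genes passed it. Differences were small. The median log2 ratio over the 38 genes was -0.13, against -0.02 over all compared genes, and 27 ratios were below 0 and 11 above. Got1, Hpd and Sdsl differed by at least 1.5-fold, and the other 35 by less. The smallest called difference was 1.32-fold, for Agxt, and the largest uncalled one 1.29-fold, for Gpt2.

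**Figure D2:**
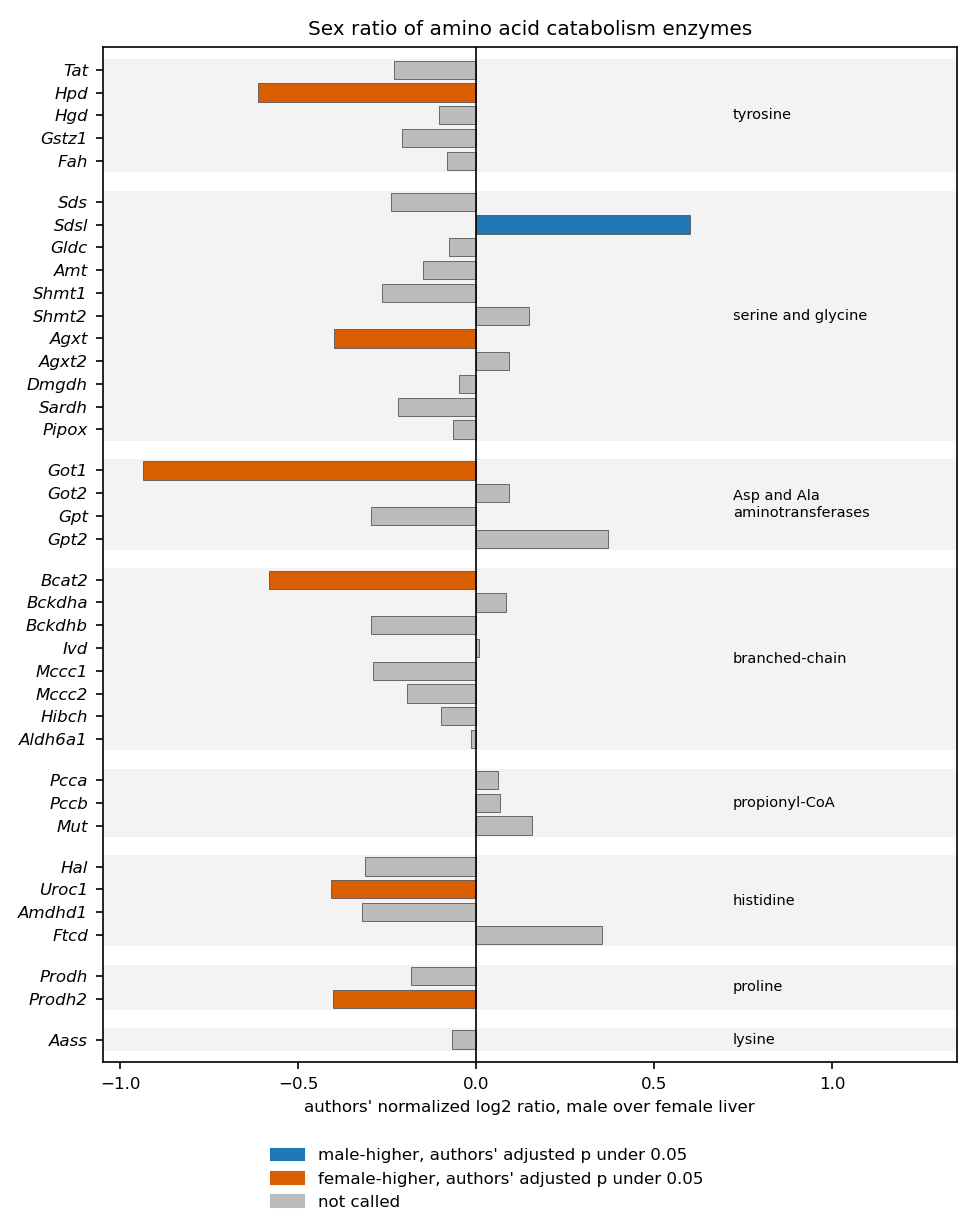
Normalized log2 ratio, male over female, that the authors give for each enzyme gene, grouped by pathway; bars to the left mean a lower level in male liver, and the colour gives the call at the authors' adjusted p under 0.05. Got1 reaches -0.94 and Sdsl 0.60, and all 5 tyrosine bars point left while all 3 propionyl-CoA bars point right.

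**Figure D3:**
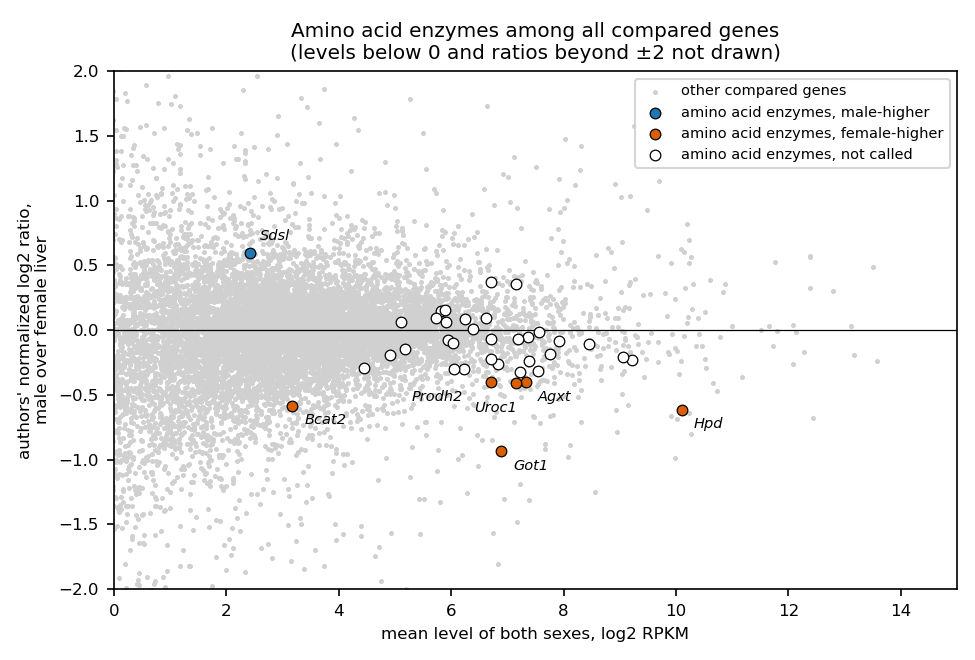
Mean level of both sexes in log2 RPKM (horizontal) against the normalized log2 ratio, male over female, given by the authors (vertical) for the enzyme genes, over the compared genes in grey. Most enzyme genes lie at high levels and within 0.4 of the zero line, with Got1 and Hpd below it and Sdsl above it at a low level.

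The largest difference in the set was that of Got1, among the 4 aminotransferases of aspartate and alanine, and the only one of them that was called. Got1 encodes the cytosolic aspartate aminotransferase, which passes the amino group between aspartate and glutamate and takes part in the malate-aspartate shuttle. Its gene spans 43574243 to 43599095 on chromosome 19 (mm9). Got1 stood at 86.8 RPKM in male liver and 162 RPKM in female liver. It was 1.91-fold lower in males by the authors' deposited table (log2 ratio -0.94, adjusted p = 9.51e-07), and counting alone allowed log2 ratios between -0.98 and -0.83. Got2, the mitochondrial enzyme of the same reaction, stood at 54.7 RPKM in male and 51.5 RPKM in female liver and was not called (log2 ratio 0.09, adjusted p = 0.63 in the authors' deposited table). The level of Got1 relative to Got2 was therefore 1.59 in male and 3.15 in female liver.

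Alanine aminotransferases, which make pyruvate from alanine, lay on opposite sides of zero in the same order. Gpt, the cytosolic enzyme, stood at 68.6 RPKM in male and 81.1 RPKM in female liver, and Gpt2, the mitochondrial one, at 123 RPKM in male and 89.2 RPKM in female liver. Neither was called in the authors' deposited table, with log2 ratios of -0.30 (adjusted p = 0.12) and 0.37 (adjusted p = 0.051). Shmt1 and Shmt2 are the cytosolic and mitochondrial serine hydroxymethyltransferases, which interconvert serine and glycine with folate. Shmt1 stood at 107 RPKM in male and 121 RPKM in female liver, and Shmt2 at 60.7 and 52.7 RPKM. They were not called either, at log2 ratios of -0.26 (adjusted p = 0.16) and 0.15 (adjusted p = 0.453) in the authors' deposited table. In each of these 3 enzyme pairs the cytosolic form had the lower ratio of male over female. The gap between the forms was -1.03 for aspartate, -0.66 for alanine and -0.41 for serine on the log2 scale. In implied reads the gap was between -1.11 and -0.87 for Got1 against Got2, between -0.82 and -0.59 for Gpt against Gpt2 and between -0.50 and -0.26 for Shmt1 against Shmt2 (95% normal interval on the log scale, counting error only). The differences between the forms were not tested over pools, for which no values are given.

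**Figure D4:**
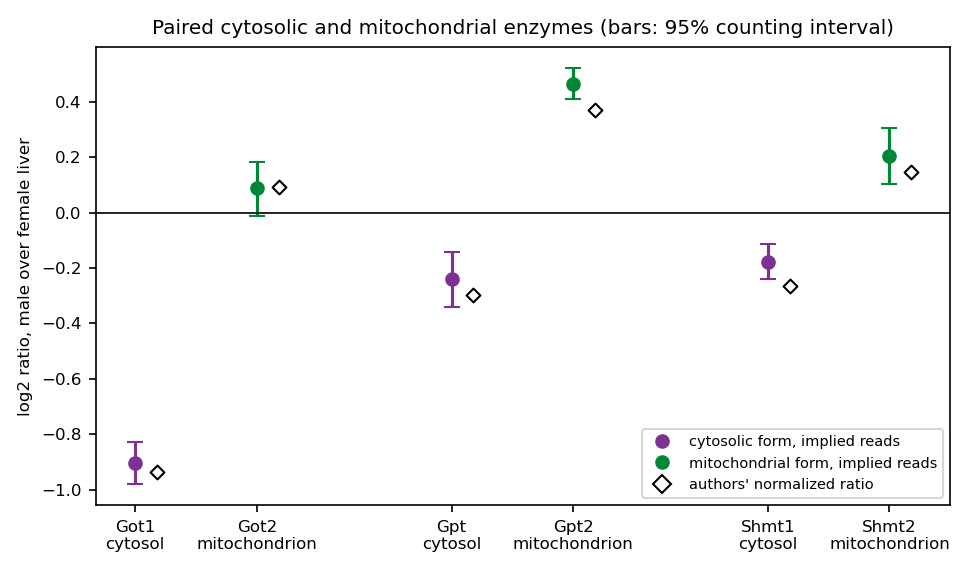
Log2 ratio of male over female liver for the cytosolic and mitochondrial forms of aspartate aminotransferase (Got1, Got2), alanine aminotransferase (Gpt, Gpt2) and serine hydroxymethyltransferase (Shmt1, Shmt2). Circles are ratios of implied reads with their 95% counting intervals and diamonds the authors' normalized ratios. Each cytosolic form lies below zero and each mitochondrial form above it. The interval of Got2 spans zero (-0.01 to 0.18), and only Got1 was called.

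The stretch of 250 bases before the RefSeq start is shown for Got1, which differed most, and for its mitochondrial counterpart Got2. The bases are those of RefSeq on GRCm38.p6, a build other than the mm9 of the expression table (chr19:43524606-43524855, minus strand and chr8:95888402-95888651, minus strand). RefSeq promoters were matched for 34 of the 38 genes; Sds, Sdsl, Gpt and Mut had no entry. Capitals mark every match, on either strand, to the motifs searched: the STAT5 element TTCNNNGAA, the TATA box TATAAA, the cAMP response motif TGACG, the HNF1 motif GTTAAT, the E-box CACGTG and the CCAAT box CCAAT. No matches overlap in these windows. The Got1 window holds 5 CCAAT boxes, read as CCAAT or ATTGG, and none of the other motifs. The Got2 window holds a TATA box match and an HNF1 match and no CCAAT box.
Got1: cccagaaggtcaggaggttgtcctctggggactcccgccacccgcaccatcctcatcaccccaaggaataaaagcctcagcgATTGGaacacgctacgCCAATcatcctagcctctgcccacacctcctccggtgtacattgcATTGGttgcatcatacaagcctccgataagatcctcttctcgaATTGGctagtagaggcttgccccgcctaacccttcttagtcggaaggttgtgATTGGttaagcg
Got2: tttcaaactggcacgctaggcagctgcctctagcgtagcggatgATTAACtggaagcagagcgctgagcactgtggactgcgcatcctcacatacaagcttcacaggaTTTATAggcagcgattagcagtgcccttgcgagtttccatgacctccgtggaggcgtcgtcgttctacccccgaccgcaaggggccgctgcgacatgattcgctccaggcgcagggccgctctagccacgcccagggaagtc

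A CCAAT box lay in 34.5% of 27025 promoter windows of this length and in 17 of the 34 member windows, and 5 or more in 0.233% of all windows, with Got1 the single member among them. The STAT5 element, whose factor is known to mediate growth hormone signals in liver, lay in 7.18% of all windows. Among the members it lay in the windows of Ivd, Pccb, Shmt2 and Prodh, none of which was called. These matches describe letters and not binding.

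Tyrosine breakdown was the most abundant pathway, and 1 of its 5 genes was called. Tyrosine is converted by Tat (tyrosine aminotransferase), Hpd (4-hydroxyphenylpyruvate dioxygenase), Hgd (homogentisate dioxygenase), Gstz1 (maleylacetoacetate isomerase) and Fah (fumarylacetoacetase), in this order. Hpd (chromosome 5, 123621816 to 123632695, mm9) stood at 899 RPKM in male and 1339 RPKM in female liver, the highest level of the set in both sexes. It was 1.53-fold lower in males by the authors' deposited table (log2 ratio -0.61, adjusted p = 0.00101), and the plain difference of its levels was -0.57, with a counting interval of -0.60 to -0.55. Tat, the first step, stood at 558 RPKM in male and 633 RPKM in female liver and was not called (log2 ratio -0.23, adjusted p = 0.212 in the authors' deposited table). Hgd stood at 343 RPKM in male and 362 RPKM in female liver (log2 ratio -0.11), Gstz1 at 504 and 561 RPKM (-0.21), and Fah at 238 and 245 RPKM (-0.08). None of these was called. All 5 ratios were below 0, with a median of -0.21. None of the 8 other listed genes of tyrosine and phenylalanine was called in the authors' deposited table.

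The promoter window of Hpd, the second gene in the authors' female-biased class, is given in the same way (chr5:123182724-123182973, minus strand). It holds none of the 6 motifs, so all its letters are in lower case, and 62.8% of them are G or C, against 54.4% in the Got1 window.
Hpd: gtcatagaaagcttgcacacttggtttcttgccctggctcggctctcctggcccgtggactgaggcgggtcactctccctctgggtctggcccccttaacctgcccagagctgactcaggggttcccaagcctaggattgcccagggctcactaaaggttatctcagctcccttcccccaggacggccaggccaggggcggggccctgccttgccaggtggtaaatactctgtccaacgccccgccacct

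Histidine breakdown held genes on both sides of zero. Hal (histidine ammonia-lyase), Uroc1 (urocanate hydratase), Amdhd1 (imidazolonepropionase) and Ftcd (formiminotransferase cyclodeaminase) act in this order. Uroc1 (chromosome 6, 90283283 to 90314542, mm9) stood at 126 RPKM in male and 161 RPKM in female liver and was 1.33-fold lower in males by the authors' deposited table (log2 ratio -0.41, adjusted p = 0.0303, counting interval -0.41 to -0.30). Hal stood at 169 RPKM in male and 207 RPKM in female liver, and Amdhd1 at 135 and 166 RPKM. Their log2 ratios of -0.31 and -0.32 were close to that of Uroc1 but were not called (adjusted p = 0.0971 and 0.0877 in the authors' deposited table). Hal and Amdhd1 lie 6594 bases apart on chromosome 10 and are transcribed towards each other. Ftcd, the last step, which hands the carbon unit to folate, stood at 162 RPKM in male and 124 RPKM in female liver. Its log2 ratio of 0.35 had the other sign and was not called (adjusted p = 0.06 in the authors' deposited table). Counting intervals of the 3 uncalled genes were -0.33 to -0.26 for Hal, -0.36 to -0.24 for Amdhd1 and 0.32 to 0.45 for Ftcd. They cover counting error only and left out 0, as did those of several uncalled genes of other pathways. Among these were Tat (-0.21 to -0.15) and Prodh (-0.18 to -0.08).

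The windows before the starts of Uroc1 (chr6:90333039-90333288, plus strand) and Ftcd (chr10:76575398-76575647, plus strand) are shown because these genes of 1 pathway had ratios of opposite sign. Uroc1 has 2 CCAAT boxes. Ftcd has a TATA box 29 bases before the start, an HNF1 match and a TGACG match, and no CCAAT box.
Uroc1: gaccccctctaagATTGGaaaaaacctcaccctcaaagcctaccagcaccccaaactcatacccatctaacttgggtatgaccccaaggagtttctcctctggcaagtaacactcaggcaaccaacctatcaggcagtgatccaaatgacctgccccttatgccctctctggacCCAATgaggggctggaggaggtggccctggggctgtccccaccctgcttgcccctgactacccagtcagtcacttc
Ftcd: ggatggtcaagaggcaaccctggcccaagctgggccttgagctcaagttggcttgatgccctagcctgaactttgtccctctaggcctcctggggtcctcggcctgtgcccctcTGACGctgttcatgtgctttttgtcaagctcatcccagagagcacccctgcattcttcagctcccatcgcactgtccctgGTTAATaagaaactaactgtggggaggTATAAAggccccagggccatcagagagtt

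Among 11 serine and glycine genes, 1 was higher and 1 lower in male liver. Sds and Sdsl encode serine dehydratase, which turns serine into pyruvate, and a related enzyme. The genes lie side by side on chromosome 5, 3720 bases apart, and are transcribed away from each other. Sdsl (chromosome 5, 120908211 to 120922819, mm9) stood at 6.62 RPKM in male and 4.31 RPKM in female liver and was 1.52-fold higher in males by the authors' deposited table (log2 ratio 0.60, adjusted p = 0.0361). It is the least abundant gene of the set, and counting alone allowed log2 ratios between 0.16 and 1.07. Sds stood at 153 RPKM in male and 185 RPKM in female liver, with the other sign and no call (log2 ratio -0.24, adjusted p = 0.209 in the authors' deposited table). Sds was 23.1 times as abundant as Sdsl in male liver and 42.9 times in female liver.

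Agxt encodes alanine-glyoxylate aminotransferase, which turns glyoxylate into glycine and so keeps it from becoming oxalate. Agxt (chromosome 1, 95031822 to 95041984, mm9) stood at 141 RPKM in male and 183 RPKM in female liver. It was 1.32-fold lower in males by the authors' deposited table (log2 ratio -0.40, adjusted p = 0.0354, counting interval -0.45 to -0.30). Agxt2, a mitochondrial aminotransferase that also accepts glyoxylate, stood at 102.5 RPKM in male and 95.1 RPKM in female liver and was not called (log2 ratio 0.09). Hao1 and Grhpr, from the list of other serine and glycine genes, also act on glyoxylate. Hao1, glycolate oxidase, which forms glyoxylate, stood at 293 RPKM in male and 155 RPKM in female liver. Hao1 was 1.91-fold higher in males by the authors' deposited table (adjusted p = 7.87e-07). Grhpr, glyoxylate reductase, stood at 120.2 RPKM in male and 79.7 RPKM in female liver and was 1.54-fold higher in males by the authors' deposited table (adjusted p = 0.00121).

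The glycine cleavage system, which splits glycine into carbon dioxide, ammonia and a folate-bound carbon unit, showed no call. Gldc, its decarboxylase, stood at 60.3 RPKM in male and 63.1 RPKM in female liver, and Amt, its aminomethyltransferase, at 35.2 and 37.8 RPKM. Their log2 ratios were -0.08 and -0.15. Dmgdh and Sardh, which remove methyl groups from dimethylglycine and sarcosine in succession, stood at 163 and 99.8 RPKM in male liver and at 166 and 109 RPKM in female liver. Dmgdh had a log2 ratio of -0.05 (adjusted p = 0.796 in the authors' deposited table) and Sardh one of -0.22. Pipox, a peroxisomal oxidase of sarcosine and pipecolate, stood at 144 RPKM in male and 149 RPKM in female liver, with a log2 ratio of -0.06. None of these 5 genes was called.

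Of 8 branched-chain genes, the first enzyme was called and the later ones were not. Bcat2, the mitochondrial branched-chain aminotransferase (chromosome 7, 52825523 to 52845080, mm9), stood at 7.58 RPKM in male and 10.8 RPKM in female liver. It was 1.497-fold lower in males by the authors' deposited table (log2 ratio -0.58, adjusted p = 0.0151), and counting alone allowed log2 ratios between -0.81 and -0.22. Hepatocytes are known to have little of this enzyme. The summed stellate cell and macrophage markers, 93.4 and 145 RPKM in male and 125 and 181.5 RPKM in female liver, were also lower in male liver. Dcn alone held 72.45 and 96.6 RPKM of the stellate cell sums. Summed cholangiocyte and exocrine pancreas markers were higher in male liver, at 46.5 and 46.9 RPKM against 31.5 and 31 RPKM in female liver. Spp1 alone held 43.93 RPKM of the male and 27.9 RPKM of the female cholangiocyte sum, and 3 of the 5 cholangiocyte ratios were below 0. Cela1, which was not called, held 38.94 RPKM of the male and 30.55 RPKM of the female pancreas sum. The part of these cells in the result was not tested. From start to end, introns included, Bcat2 overlaps 5024 bases of 0610005C13Rik on the other strand. That gene stood at 213 RPKM in male and 214 RPKM in female liver, and whether exons overlap was not examined. The sources used here do not say whether reads were counted by strand, so the level of Bcat2 is uncertain.

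Bckdha and Bckdhb are the subunits of the decarboxylase in the branched-chain ketoacid dehydrogenase, the committed step. Bckdha stood at 77.7 RPKM in male and 74.7 RPKM in female liver, and Bckdhb at 59.8 and 73.9 RPKM. Their log2 ratios were 0.08 and -0.30, neither called in the authors' deposited table. The leucine branch runs through Ivd, isovaleryl-CoA dehydrogenase, at 83.8 RPKM in male and 83.2 RPKM in female liver (log2 ratio 0.01). It goes on to the subunits of methylcrotonyl-CoA carboxylase. Mccc1 stood at 20.3 RPKM in male and 23.3 RPKM in female liver (log2 ratio -0.29), and Mccc2 at 29.3 and 31.4 RPKM (-0.19). The valine branch runs through Hibch, the hydroxyisobutyryl-CoA hydrolase, at 62.6 RPKM in male and 68.5 RPKM in female liver (log2 ratio -0.10), and Aldh6a1, methylmalonate semialdehyde dehydrogenase. Aldh6a1 was the most abundant of the 8, at 188 RPKM in male and 191 RPKM in female liver (log2 ratio -0.02, adjusted p = 0.933 in the authors' deposited table). None of the 13 compared genes on the list of other branched-chain enzymes was called either, among them Dbt and Dld, the remaining subunits of the dehydrogenase complex, and its kinase Bckdk.

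Propionyl-CoA, formed from valine, isoleucine, methionine and threonine, is carboxylated by Pcca and Pccb and rearranged to succinyl-CoA by Mut, methylmalonyl-CoA mutase. Pcca stood at 35.8 RPKM in male and 33.1 RPKM in female liver, Pccb at 63.5 and 57.2 RPKM and Mut at 62.9 and 56.5 RPKM. All 3 levels were slightly higher in male liver, with log2 ratios of 0.06, 0.07 and 0.16, and none was called (adjusted p = 0.772, 0.744 and 0.411 in the authors' deposited table). From start to end, introns included, Pcca shares 73722 bases with A2ld1, a gene on the other strand. A2ld1 stood at 134 RPKM in male and 114 RPKM in female liver, and whether exons overlap was not examined. The level of Pcca is therefore uncertain without knowledge of the counting. The ratio of Pcca to Pccb was 0.563 in male and 0.579 in female liver.

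Proline oxidation had 1 called gene. Prodh, proline dehydrogenase, stood at 208 RPKM in male and 227 RPKM in female liver and was not called (log2 ratio -0.18, adjusted p = 0.337 in the authors' deposited table). Prodh2, hydroxyproline dehydrogenase, the first step of the route that turns collagen-derived hydroxyproline into glyoxylate, stood at 94.6 RPKM in male and 116 RPKM in female liver. Prodh2 (chromosome 7, 31278677 to 31298421, mm9) was 1.32-fold lower in males by the authors' deposited table (log2 ratio -0.40, adjusted p = 0.0333). The plain difference of its levels was smaller, -0.29 on the log2 scale (counting interval -0.37 to -0.21), and of the 38 genes it had the largest offset between plain and normalized values. Aass, the bifunctional enzyme that opens lysine breakdown, stood at 102 RPKM in male and 108 RPKM in female liver and was not called (log2 ratio -0.07, adjusted p = 0.721 in the authors' deposited table).

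Listed enzymes of the same pathways that were no members numbered 83, of which 79 were compared. Calls in the authors' deposited table numbered 13, with 7 higher and 6 lower in male liver, or 16.5%, close to the 17.4% of all compared genes. Oat, ornithine aminotransferase, stood at 99.6 RPKM in male and 225 RPKM in female liver, 2.28-fold lower in males by the authors' deposited table (adjusted p = 5.46e-10). Aadat, the aminoadipate aminotransferase of lysine breakdown, stood at 79.4 RPKM in male and 42.7 RPKM in female liver, 1.91-fold higher in males by the authors' deposited table (adjusted p = 1.87e-06). Gls2, the liver glutaminase, stood at 138 RPKM in male and 179 RPKM in female liver, 1.31-fold lower in males by the authors' deposited table (adjusted p = 0.038). Bhmt, the betaine methyltransferase that forms dimethylglycine, was 1.38-fold lower and Chdh, choline dehydrogenase, 1.37-fold higher in males by the authors' deposited table (adjusted p = 0.0142 and 0.0182).

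Of the further called genes, Asns, Hdc and Aldh1l2 had few reads, whereas some that are not named here had many. Asns, asparagine synthetase, was 2.69-fold higher in males by the authors' deposited table, from 25 implied reads in male and 12 in female liver. Hdc, histidine decarboxylase, was 2.23-fold lower in males by the authors' deposited table, with 17 implied reads in male and 49 in female liver. Aldh1l2, a mitochondrial folate enzyme, had 1 implied read in male and 15 in female liver, and counting alone allowed a difference between 1.76-fold and 482-fold.

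Of 15 listed regulators of these genes, Cebpb and Ppara were called, and both were higher in male liver, by 1.48-fold and 1.39-fold in the authors' deposited table (adjusted p = 0.00554 and 0.0141). Nr3c1, the glucocorticoid receptor, Gcgr, the glucagon receptor, and Hnf4a were not called. Zonation genes were set beside these results because several of the enzymes are known from the periportal zone of the lobule. Of 7 compared pericentral genes, 5 (Oat, Axin2, Lgr5, Slc1a2 and Rhbg) were lower in male liver and none was higher in the authors' deposited table. Over all compared genes 10.2% were called lower. The most abundant of the 7 were not called, Cyp2e1 at 3270 RPKM in male and 3180 RPKM in female liver and Cyp1a2 at 278 and 277 RPKM. The 8 periportal genes, Sdsl among them, had 2 called in each direction. Cyp2f2 stood at 984 RPKM in male and 523.5 RPKM in female liver, and Ass1 at 451 and 620.4 RPKM. Whether zonation has a part in the differences of the enzymes was not tested.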

How the data were processed

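Poly-A-enriched, strand-specific RNA-seq of 4 pools of male and female CD-1 liver RNA was analysed from 1 table. Bowtie, edgeR and mm9 are named in the submitters' processing notes, with no version or role; the sources used here do not say how reads were counted. Per the file headers, the authors deposited log2 RPKM per sex, a normalized log2 ratio, a linear ratio, a signed fold change (a score), an adjusted p-value and a mark for genes expressed in liver. Pools are not separated, so no gene was tested anew, and calls use the authors' adjusted p-value under 0.05.

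Of 21827 entries, 6590 lay at the floor in both sexes, 14 more had no level, and 1460 lay above it in 1 sex by a whole multiple (within 0.3%) with a log2 ratio of 0; the other 13763 were compared. All 38 members and the lists were chosen with earlier results of these data known. Every member is given, with full statistics for those called and for the most abundant of each pathway. Other pathway genes are named where called, up to 4 per list by size of ratio, except for values not reported here. Regulators, zonation genes, cell markers and uncalled examples are named from fixed lists. The listed genes Glul, Hoga1, Tf and Amy2a5 were not analysed here.

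Implied reads take the floor as 1 read added to every gene, subtract it and use GENCODE vM21 transcript lengths (by accession for 22 members, by symbol for 16). Of 4668 floor genes with an accession length, 74.2% fitted it within 2%. Of 1092 matched by symbol, 59.7% fitted within 2% and 80.5% within 20%, so reads are approximate. Depth recovery and intervals were tested on simulated data. Motif windows are RefSeq sequence (GRCm38.p6, first listed start). Python 3.11.15, pandas 2.3.3, numpy 2.4.6, scipy 1.17.1 and matplotlib 3.10.9 were used. Alternatives were a stricter p, a fold minimum, liver-expressed genes only, the plain difference of levels, centring on the median and another scaling of reads. Coordinates are mm9 with a start counted from 1.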

Additional observations from a re-analysis of the deposited data

How the results depend on the processing

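At the authors' adjusted p under 0.01, 0 members were higher in male liver and 2 were lower (Got1 and Hpd). Of the other pathway genes, 5 were higher and 1 was lower in male liver at this threshold. A minimum of 1.5-fold left 1 member higher and 2 lower in male liver, and 5 other pathway genes higher and 3 lower. Restriction to liver-expressed genes and direction from the plain difference of levels kept every count within 1.5 times. The members' median log2 ratio of -0.13 was -0.10 by the plain difference and -0.10 when centred on all compared genes. Of 26 single-gene ratios checked, none changed sign for a called gene, and 4 moved beyond their counting interval under the plain difference. Of 20 called genes, 12 did not pass at 0.01. Leaving out each pool was not run, since levels are given per sex only. No paired analysis was possible because the deposited values are not separated by pool. Depth limits Sdsl, Bcat2 and the other pathway genes with few reads, whose counting intervals are wide.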

Other observations

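Grouped by where the enzymes are known to work in the cell, a grouping chosen after the values were seen, 12 of 14 cytosolic genes had a ratio of male over female below 0, and the median log2 ratio was -0.25. Over all compared genes 7266 of 13763 ratios were below 0. The exceptions were Sdsl and Ftcd. Of these 14, 3 were called lower in male liver (Got1, Hpd and Uroc1) and 1 higher (Sdsl) in the authors' deposited table, against 10.2% lower and 7.21% higher over all compared genes. Among 22 mitochondrial genes 13 ratios were below 0 and 9 above, with a median of -0.06, and 2 were called lower in male liver (Bcat2 and Prodh2). The peroxisomal genes Agxt and Pipox stood at log2 ratios of -0.40 and -0.06. The difference between compartments was not tested. Summed levels were 3556 RPKM in male and 4354 RPKM in female liver for the cytosolic genes, and 1795 and 1819 RPKM for the mitochondrial ones. Hpd alone held 899 RPKM of the male and 1339 RPKM of the female cytosolic sum.

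Subunits of the same complex kept close ratios in some cases. Pcca and Pccb differed by 0.01 in log2 ratio, Gldc and Amt by 0.07, and Mccc1 and Mccc2 by 0.10. Bckdha and Bckdhb differed by 0.38, and by counting alone the gap lay between 0.21 and 0.51 (95% normal interval on the log scale of implied reads). Bckdha was 1.299 times as abundant as Bckdhb in male liver and 1.01 times in female liver. This gap was not tested over pools.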
